A study of Mus musculus with 6 samples.

Results

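The genes described here are 9 genes of antigen presentation by major histocompatibility complex (MHC) class I, taken by symbol from the 55573 genes of a mouse RNA-seq count table. They are B2m, H2-K1, H2-D1, H2-Q7, H2-T23, Tap1, Tap2, Tapbp and Nlrc5, and each matched 1 gene of the table. Adult-born cells were sorted from the olfactory bulbs of male C57BL/6 mice, 3 months of age, at 9 days after a lentivirus had been placed in the rostral migratory stream. All animals thus carried a virus and all sorted cells were taken for the fluorescence of Twitch-2B, a calcium indicator. In the Kv1.2 group the virus encoded Twitch-2B together with the voltage-gated potassium channel Kv1.2, built from a human cDNA. In the Kir2.1 group it encoded Twitch-2B with the inwardly rectifying potassium channel Kir2.1, from a mouse cDNA. In the control group it encoded Twitch-2B with a nuclear mCherry and no channel. The vector backbone (FUGW) drives expression in any transduced cell type and not in neurons alone. Each group had 2 libraries, each library pooled the cells of 2 mice, and 12 mice were used in all.

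MHC class I molecules show peptides from inside a cell to CD8 T cells and natural killer cells. A polymorphic heavy chain is held by beta-2 microglobulin, peptides cut by the proteasome are pumped into the endoplasmic reticulum by the TAP transporter, and tapasin bridges the transporter and the empty heavy chain. Interferons induce these genes together, with IRF factors and NLRC5 acting at their promoters. In the brain class I is known to be abundant in microglia and endothelium and low in most neurons, where it has also been tied to the shaping of synapses.

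The 6 libraries held 8871595 to 13632970 counts, and 12275 genes reached 1 CPM (counts scaled to library size) in at least 2 of them, the minimum for testing. The CPM printed for genes instead divide by the library size over tested genes times edgeR's TMM scaling factor, 0.905 to 1.26. Percentages are of all counts without that factor, so both measures can differ. All 9 class I genes passed it. The 14 established markers of microglia, among them Cx3cr1, P2ry12 and C1qa, were detected in every library, and made up 9.60% and 9.25% of all counts in the Kv1.2 libraries, 5.84% and 9.25% in the Kir2.1 libraries, and 5.84% and 0.697% in the control libraries. The 13 markers of neuroblasts and young neurons, the labelled cell type, made up 0.000425% and 0.00567% of counts in the Kv1.2 libraries, 0.00367% and 0.0109% in the Kir2.1 libraries, and 0.1% and 0.138% in the control libraries. Control replicate 2 thus stood apart by its low share of microglia markers. Dcx, a defining gene of neuroblasts, had 0 and 0.244 CPM in the Kv1.2 libraries and 0 CPM in both Kir2.1 libraries, against 82.8 and 19.3 CPM in the control libraries. Some genes of the list, such as Gad1, split in the same way, and others did not. Stmn2 had 0 and 27.7 CPM in the Kv1.2 libraries, 0 in both Kir2.1 libraries, and 0.398 and 82.85 in the control libraries. Rbfox3 had 3.365 and 0, 2.17 and 0, and 0.398 and 20.1 CPM in the Kv1.2, Kir2.1 and control libraries. The mouse gene of each channel did not tell the groups apart. Kcnj2 had 5.80 and 28.3 CPM in the libraries labelled Kir2.1, 17.7 and 0.0814 CPM in those labelled Kv1.2, and 8.66 and 10.7 CPM in those labelled control. Kcna2, whose transgene was human, had 1.92 and 0.407 CPM in the libraries labelled Kv1.2, against 0.299 and 54.0 CPM in those labelled control. Every group and direction given here therefore rests on the labels, and a Kv1.2, Kir2.1 or control library means one so labelled.

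The class I genes lay higher in the channel groups than in the control group, and none of them passed the threshold on 2 libraries a group. In edgeR's quasi-likelihood test, with p-values adjusted over all 12275 genes, 0 of 9 reached an adjusted p under 0.05 in Kv1.2 against control, where 0 genes in all, 0%, did so. At an unadjusted p under 0.05, 6 of the 9 were higher in the Kv1.2 group, and 3.23% of all genes were. The numbers for Kir2.1 against control were 0 of 9 at the adjusted threshold (0% of all genes) and 3 of 9 at the unadjusted one (3.25% of all genes). With the mean of both channel groups set against control, 0 of 9 passed (0.0244% of all genes) and 5 of 9 were higher at the unadjusted level (2.85% of all genes). DESeq2 on the same genes called 5, 2 and 4 of the 9 in these comparisons, beside 10.6%, 8.06% and 10% of all genes in either direction. The likelihood ratio test of edgeR called 4, 1 and 3 of the 9, beside 5.89%, 1.83% and 8.94% of all genes. All 3 comparisons share the control libraries.

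All 9 genes had a fold change above 0 in each of these comparisons. H2-Q7 and Tap2 were under 1 CPM in both control libraries and reached the minimum for testing only through channel libraries. Their direction against control was thus partly set by that minimum. The median log2 fold change of the 9 genes was 3.78 in Kv1.2 against control, where the median of all genes was -0.12. It was 2.27 in Kir2.1 against control, with a median of 0.04 over all genes, and 3.17 for both channel groups, with -0.19 over all genes. In Kv1.2 against control both Kv1.2 libraries lay above both control libraries for 9 of the 9 genes, as they did for 19.3% of all genes. In Kir2.1 against control this held for 5 of 9, H2-K1, H2-D1, H2-T23, Tap1 and Tap2, and for 19.9% of all genes. All 4 channel libraries lay above both control libraries for the same 5 genes, and for 8.52% of all genes.

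**Figure D1:**
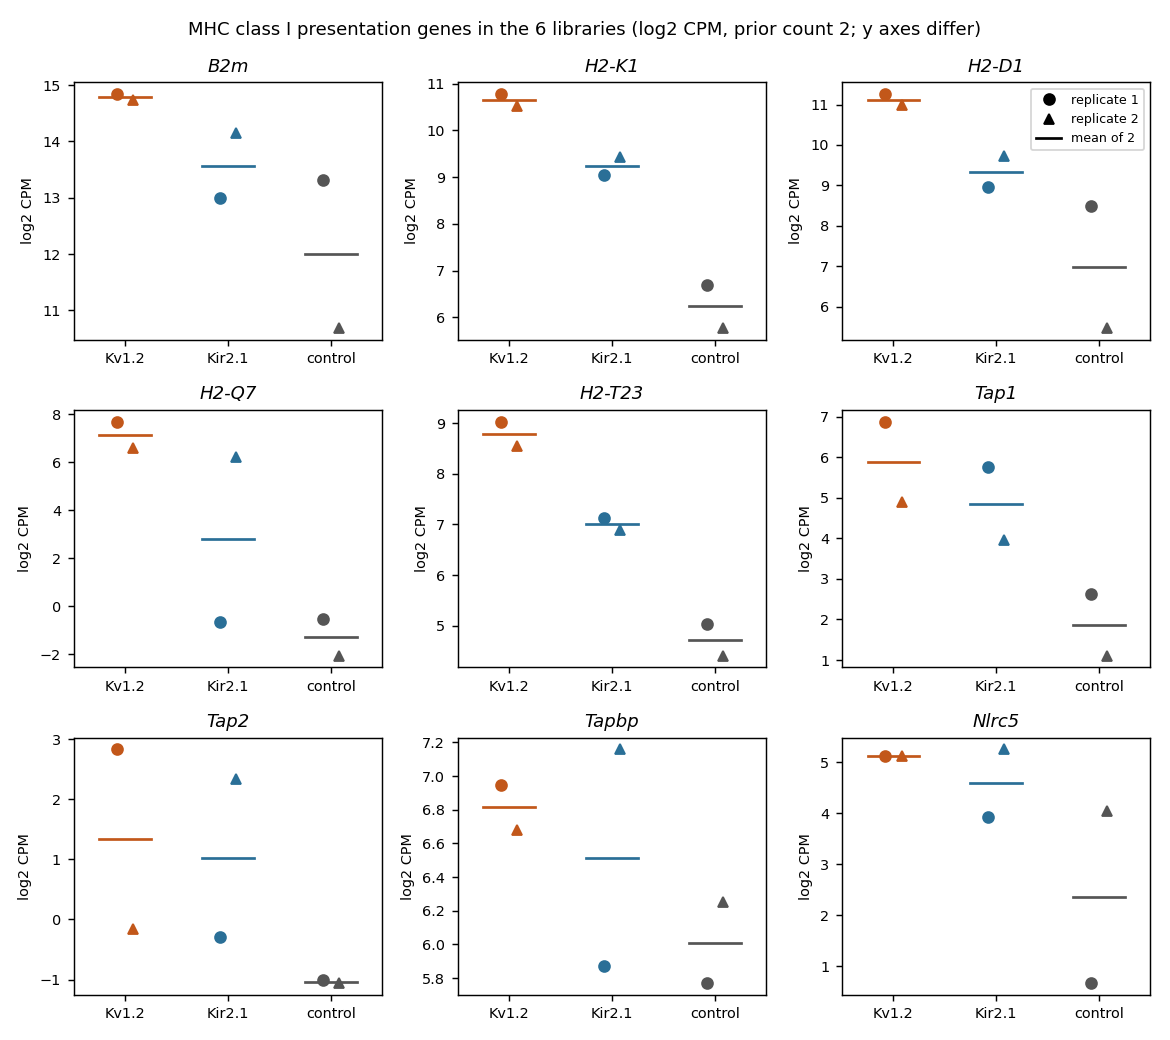
Level of each of the 9 class I genes in the 6 libraries, as log2 CPM with a prior count of 2, with circles for replicate 1, triangles for replicate 2 and a line at the mean of 2 libraries; the y axes differ between panels. The Kv1.2 libraries lie above both control libraries in every panel, while a Kir2.1 library falls within the control range for B2m, H2-Q7, Tapbp and Nlrc5.

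B2m encodes beta-2 microglobulin, the light chain shared by all class I molecules, and lies on chromosome 2 (122147686 to 122153083, plus strand, GRCm38). It had 29310 and 27200 CPM in the Kv1.2 libraries, 8186 and 18010 CPM in the Kir2.1 libraries, and 10200 and 1646 CPM in the control libraries. Control replicate 2 was low, and control replicate 1 lay between the Kir2.1 libraries, so that the Kir2.1 and control groups overlapped while both Kv1.2 libraries were above all others. The log2 fold change was 2.25 ± 0.92 in Kv1.2 against control (standard error from the test statistic, n = 2 libraries a group, adjusted p = 0.412, edgeR) and 1.15 ± 0.89 in Kir2.1 against control (adjusted p = 0.713). Without control replicate 2 these values were 1.39 and 0.29, and without control replicate 1 they were 4.00 and 2.90. B2m made up 2.68% and 2.59% of all counts in the Kv1.2 libraries, 1.02% and 1.75% in the Kir2.1 libraries, and 1.03% and 0.146% in the control libraries. Ordered by counts it was the gene ranked 5 in both Kv1.2 libraries, 7 and 6 in the Kir2.1 libraries, and 11 and 77 in the control libraries.

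H2-K1 and H2-D1 encode the classical heavy chains K and D, which present peptides to CD8 T cells, and lie on chromosome 17 (33996017 to 34000347, minus strand, and 35262730 to 35267499, plus strand). H2-K1 had 1757 and 1482 CPM in the Kv1.2 libraries, 529 and 693 CPM in the Kir2.1 libraries, and 104 and 54.4 CPM in the control libraries. The 3 groups did not overlap. The share of all genes with such a split of 3 groups was not counted. Taken by pairs, Kv1.2 lay above control for 19.3% of all genes, Kir2.1 above control for 19.9%, and Kir2.1 below Kv1.2 for 16.7%. H2-K1 also had the smallest p of the 9 genes, with a log2 fold change of 4.36 ± 0.64 in Kv1.2 against control (unadjusted p = 0.00023, adjusted p = 0.257, edgeR). In Kir2.1 against control it was 2.95 ± 0.60 (unadjusted p = 0.00161, adjusted p = 0.421, edgeR). Leaving out any 1 library kept these values within 3.88 to 4.79 and 2.49 to 3.40. H2-D1 had 2459 and 2018 CPM in the Kv1.2 libraries, 498 and 841 CPM in the Kir2.1 libraries, and 357 and 44.1 CPM in the control libraries. Its groups did not overlap either, yet Kir2.1 replicate 1 and control replicate 1 were close. Its log2 fold change was 3.48 ± 1.0 for Kv1.2 (adjusted p = 0.394, edgeR) and 1.74 ± 0.93 for Kir2.1 (adjusted p = 0.574), without control replicate 2 it was 2.56 and 0.84, and without control replicate 1 it was 5.56 and 3.83.

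H2-T23 and H2-Q7 are nonclassical heavy chains. H2-T23 encodes Qa-1, which is read by the CD94/NKG2 receptors of natural killer cells, and lies on chromosome 17 (36029773 to 36032855, minus strand). It had 523 and 375 CPM in the Kv1.2 libraries, 139 and 119 CPM in the Kir2.1 libraries, and 32.5 and 21.0 CPM in the control libraries, again with no overlap between the 3 groups. The log2 fold change was 4.07 ± 0.68 in Kv1.2 against control (unadjusted p = 0.000517, adjusted p = 0.28, edgeR) and 2.27 ± 0.63 in Kir2.1 against control (unadjusted p = 0.00846, adjusted p = 0.521, edgeR). H2-Q7 encodes a Qa-2 molecule and lies on chromosome 17 (35439155 to 35443773, plus strand). It had 2585 and 1191 counts in the Kv1.2 libraries, 5 and 825 counts in the Kir2.1 libraries, and 5 and 0 counts in the control libraries. Detection was thus split within the Kir2.1 group, whose replicate 1 stood at the level of control replicate 1. In CPM these were 207 and 96.95 for Kv1.2, 0.453 and 74.7 for Kir2.1, and 0.498 and 0 for control. The fitted log2 fold changes of 9.15 ± 2.76 (adjusted p = 0.394, edgeR) and 7.13 ± 2.55 (adjusted p = 0.521) stand on 5 control counts. Without Kir2.1 replicate 2 the value for Kir2.1 was 0.79.

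Reads can be shared among the heavy chain genes, whose sequences are alike. Of all 75-base windows of the annotated H2-Q7 transcripts, 17% also occur in a transcript of another gene, mainly H2-Q10, H2-Q5 and H2-Q6. The share was 3.10% for H2-K1, 5.56% for H2-D1 and 5.91% for H2-T23, and 0% for B2m. Reads that mapped to several places had been removed, so counts of H2-Q7 leave out such windows, and its level against other genes is uncertain to that extent.

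Tap1 and Tap2 encode the subunits of the peptide transporter and lie side by side on chromosome 17 (34187553 to 34197225 and 34203527 to 34216321, both on the plus strand). Tap1 had 117 and 29.7 CPM in the Kv1.2 libraries, 54.3 and 15.3 CPM in the Kir2.1 libraries, and 5.97 and 1.92 CPM in the control libraries. Replicates of each group were over 3-fold apart, while all 4 channel libraries lay above both control libraries. Tap1 had a log2 fold change of 4.22 ± 1.54 for Kv1.2 (adjusted p = 0.394, edgeR) and 3.14 ± 1.47 for Kir2.1 (adjusted p = 0.534). Tap2 was close to the detection limit, with 87 and 9 counts in the Kv1.2 libraries, 7 and 54 counts in the Kir2.1 libraries, and 3 and 2 counts in the control libraries. Its highest library in each channel group, 6.97 CPM for Kv1.2 and 4.89 CPM for Kir2.1, carried most of the group's counts. The log2 fold changes of 3.78 ± 2.14 and 3.30 ± 2.1 for Kv1.2 and Kir2.1 had the adjusted p-values 0.502 and 0.632 (edgeR). The exons of Tap1 overlap those of Psmb9 on the opposite strand by 212 bases, and those of Tap2 overlap the noncoding Gm15821 by 533 bases, and no source used here says whether reads were counted by strand.

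Tapbp encodes tapasin, which holds the empty heavy chain at the transporter, and lies on chromosome 17 (33915899 to 33929292, plus strand). It varied least of the 9 genes, over a range of 1.39 log2 units across the 6 libraries. Tapbp had 123 and 103 CPM in the Kv1.2 libraries, 58.3 and 143 CPM in the Kir2.1 libraries, and 54.3 and 76.0 CPM in the control libraries. Tapbp gave a log2 fold change of 0.79 ± 0.79 for Kv1.2 (adjusted p = 0.777, edgeR) and 0.62 ± 0.79 for Kir2.1 (adjusted p = 0.869), no more than its standard error. Without Kir2.1 replicate 2 the comparison of Kir2.1 with control gave -0.18. Of its 75-base windows, 17.5% are shared with the antisense gene Gm19412, which overlaps its exons by 904 bases.

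Nlrc5 encodes the transactivator that drives class I genes from the SXY module of their promoters, and lies on chromosome 8 (94434356 to 94527272, plus strand). It had 34.8 and 34.7 CPM in the Kv1.2 libraries, 15.04 and 38.2 CPM in the Kir2.1 libraries, and 1.39 and 16.3 CPM in the control libraries. The low value here was control replicate 1, unlike for B2m and the heavy chains, of which control replicate 2 had the least. The log2 fold change was 1.97 ± 1.71 for Kv1.2 (adjusted p = 0.721, edgeR) and 1.59 ± 1.69 for Kir2.1 (adjusted p = 0.821). Without control replicate 2 these values were 4.54 and 4.17, and without control replicate 1 they were 0.99 and 0.62.

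**Figure D2:**
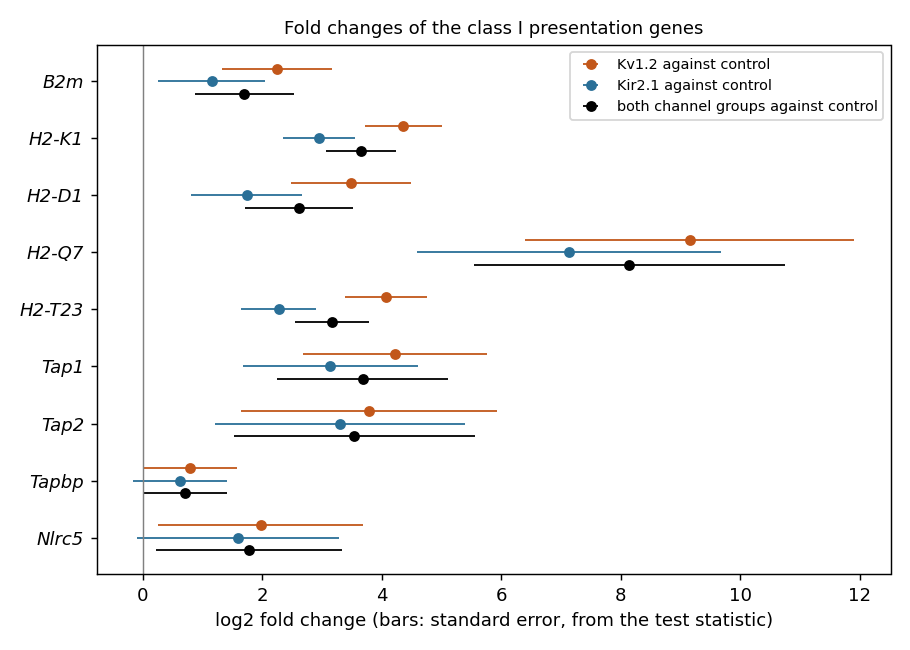
Log2 fold change of each class I gene in Kv1.2 against control (orange), Kir2.1 against control (blue) and both channel groups against control (black), with bars of 1 standard error from edgeR's test statistic. All points lie above 0, H2-K1 and H2-T23 are the farthest from 0 relative to their bars, and Tapbp is the closest to 0.

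Kir2.1 against Kv1.2 compared the channel groups with each other, on the libraries that the comparisons above also used and with their shared estimate of the spread. All 9 genes were below 0 here, lower in Kir2.1, and the median log2 fold change was -1.11, beside 0.13 over all genes. None of the 9 passed the adjusted threshold (0% of all genes did), and 2 of 9, H2-K1 and H2-T23, were lower at an unadjusted p under 0.05, as were 2.05% of all genes. DESeq2 and the likelihood ratio test called 0 of the 9 after adjustment, and 5.25% and 0.554% of all genes. The libraries did not overlap for 5 of 9, B2m and the 4 heavy chains, where both Kir2.1 libraries lay below both Kv1.2 libraries, as for 16.7% of all genes. The log2 fold change was -1.80 ± 0.62 for H2-T23 and -1.41 ± 0.57 for H2-K1 (adjusted p = 0.739 each, edgeR). For Tap1, Tap2, Tapbp and Nlrc5 the libraries of both groups overlapped, with log2 fold changes from -1.08 to -0.17 and standard errors of 0.79 to 1.9.

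Levels of different genes were compared as FPKM, deposited values that divide by transcript length. B2m led in every library, with 34000 and 31600 FPKM in the Kv1.2 libraries, 9530 and 20900 FPKM in the Kir2.1 libraries, and 11900 and 1910 FPKM in the control libraries. The gene next in order was H2-D1 in 5 libraries and Tapbp in control replicate 2. B2m exceeded it 35.7-fold and 40.4-fold in the Kv1.2 libraries, 49.4-fold and 64.1-fold in the Kir2.1 libraries, and 86.2-fold and 91.4-fold in the control libraries. At the other end stood Tap2 or H2-Q7, which was listed at 0 FPKM in control replicate 2. The balance of heavy to light chain also differed between libraries. Counts of H2-K1, H2-D1, H2-Q7 and H2-T23 together came to 16.9 and 14.6 per 100 counts of B2m in the Kv1.2 libraries, 14.2 and 9.59 in the Kir2.1 libraries, and 4.84 and 7.25 in the control libraries. All 4 channel libraries thus lay above both control libraries in this ratio of counts.

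The 14 microglia markers together had their lowest share in control replicate 2, where B2m, H2-K1, H2-D1, H2-Q7 and H2-T23 were also lowest. Single markers ordered the groups differently. C1qb had 38990 and 34470 CPM in the Kv1.2 libraries, 13010 and 27330 in the Kir2.1 libraries, and 17460 and 2483 in the control libraries. For Sall1 these were 154 and 175, 710 and 208, and 292 and 32.3 CPM. In sorted pools of this kind more cells of a type and more RNA per cell cannot be told apart. By the root mean square difference of centred log2 CPM over the 6 libraries, the genes most like B2m were H2-Ob (0.141), the complement genes C1qb (0.148) and C1qc (0.209), AW112010 (0.191) and Lgals9 (0.194). Of the class I genes H2-D1 followed B2m most closely (0.58), and H2-Q7 least (2.88). Per 1000 counts of the 14 microglia markers, B2m had 279 and 280 counts in the Kv1.2 libraries, 174 and 190 in the Kir2.1 libraries, and 176 and 209 in the control libraries. On that basis the Kv1.2 libraries were above the rest, and Kir2.1 and control overlapped. H2-K1 had 16.7 and 15.3 counts per 1000 in the Kv1.2 libraries, 11.3 and 7.29 in the Kir2.1 libraries, and 1.79 and 6.90 in the control libraries, so that the order of the groups was kept. H2-D1 had 23.4 and 20.8, 10.6 and 8.85, and 6.17 and 5.59 counts per 1000 in the Kv1.2, Kir2.1 and control libraries, in the same order. For H2-T23 the values were 4.99 and 3.86 in the Kv1.2 libraries, 2.96 and 1.25 in the Kir2.1 libraries, and 0.562 and 2.66 in the control libraries, where Kir2.1 and control overlapped. Tap1 had 1.12 and 0.306 counts per 1000 in the Kv1.2 libraries, 1.16 and 0.161 in the Kir2.1 libraries, and 0.103 and 0.243 in the control libraries, and Kir2.1 again overlapped control. Tap2 overlapped in both channel groups, with 0.0664 and 0.00755 in the Kv1.2 libraries, 0.0135 and 0.0515 in the Kir2.1 libraries, and 0.00517 and 0.0304 in the control libraries. Of the 5 genes whose CPM was above control in all 4 channel libraries, H2-K1 and H2-D1 stayed so on this basis. Tapbp stood at 0.939 to 1.5 per 1000 in 5 libraries and at 9.64 in control replicate 2, and Nlrc5 was likewise highest in that library, at 2.07. Counts of these genes in control replicate 2 were thus large relative to its few microglia counts.

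Pairs of libraries with the same share of microglia markers could be set side by side, with 1 library on each side and thus no test. Kir2.1 replicate 1 and control replicate 1 both had a share of 5.84%. Single markers still differed between them in both directions, with Tmem119 at 442 and 138 CPM and C1qb at 13010 and 17460 CPM. B2m made up 1.02% of counts in this Kir2.1 library and 1.03% in this control library, or 8186 and 10200 CPM. H2-K1 had 529 CPM in the Kir2.1 library and 104 CPM in the control library. H2-T23 had 139 and 32.5 CPM, Tap1 54.3 and 5.97 CPM, and Nlrc5 15.04 and 1.39 CPM. H2-D1 was closer, at 498 and 357 CPM. Tapbp, at 58.3 and 54.3 CPM, and H2-Q7, with 5 counts in each, were close between these libraries. Kir2.1 replicate 2 and Kv1.2 replicate 2 both had a share of 9.25%. B2m made up 1.75% of counts in this Kir2.1 library and 2.59% in this Kv1.2 library. H2-K1 had 693 CPM in the Kir2.1 library and 1482 CPM in the Kv1.2 library, H2-D1 841 and 2018 CPM, and H2-T23 119 and 375 CPM. Tap2, at 4.89 and 0.733 CPM, and Tapbp, at 143 and 103 CPM, were higher in the Kir2.1 library, and Nlrc5 was close, at 38.2 and 34.7 CPM.

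Markers of other cells took smaller shares of the counts than those of microglia. The 6 markers of astrocytes made up 0.0332% and 0.0219% of counts in the Kv1.2 libraries, 0.0368% and 0.0342% in the Kir2.1 libraries, and 0.0781% and 0.187% in the control libraries. The 6 markers of oligodendrocytes made up 0.00308% and 0.00555% in the Kv1.2 libraries, 0.0139% and 0.00302% in the Kir2.1 libraries, and 0.0252% and 0.0583% in the control libraries. Both lists were thus highest in the control group, where the class I genes were low. The 8 markers of T and NK cells made up 0.0288% and 0.0094% of counts in the Kv1.2 libraries, 0.000552% and 1.76e-05% in the Kir2.1 libraries, and 0.000131% and 3.17e-05% in the control libraries, with Cd8a at 0 counts throughout. Nkg7, a granule gene of cytotoxic cells, had 113 and 26.2 CPM in the Kv1.2 libraries and at most 0.0906 CPM in the Kir2.1 and control libraries. Cd3g was likewise seen in both Kv1.2 libraries, at 67.3 and 30.2 CPM. Others of the list differed, with Gzma at 100 and 0.0814 CPM and Klrb1c at 0 and 19.05 CPM in the Kv1.2 libraries. Cd4 was highest in Kir2.1 replicate 1, at 4.17 CPM. The 8 endothelial markers reached 0.00156% at most, in control replicate 2, and the 6 markers of border-associated macrophages were highest in Kir2.1 replicate 1, at 0.202%. The part of any of these cells in the class I levels was not tested.

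**Figure D3:**
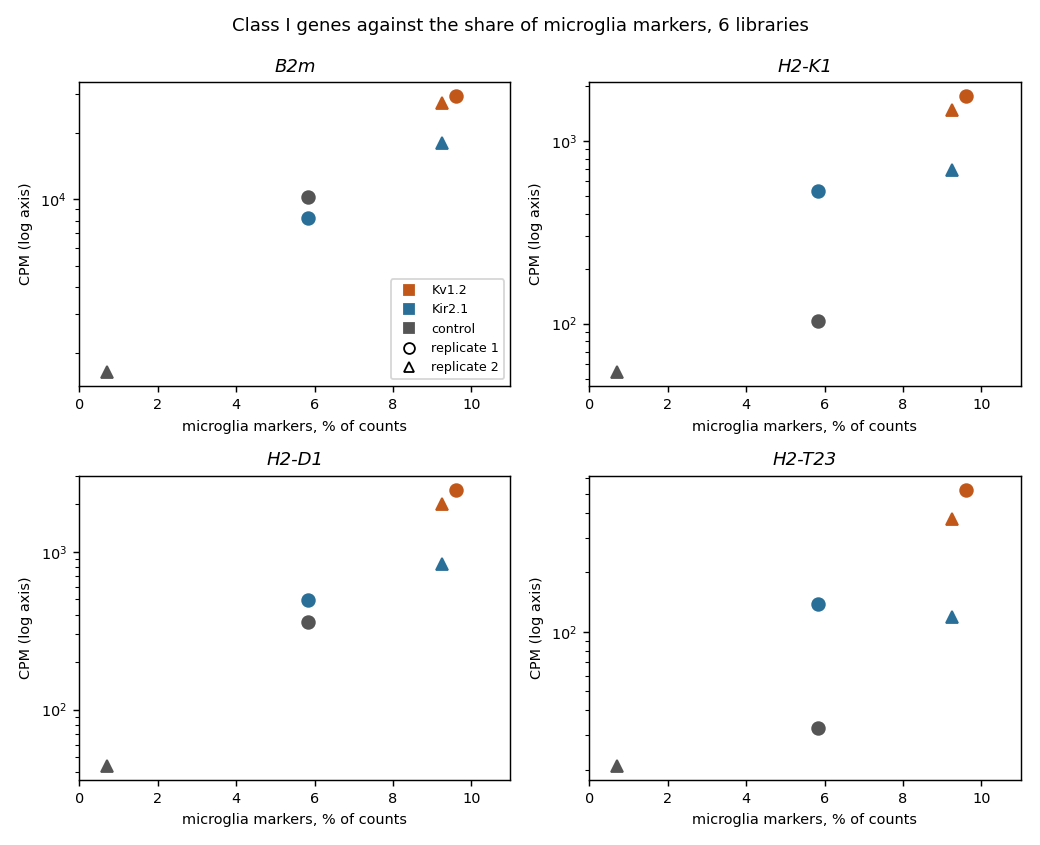
CPM (log axis) of B2m, H2-K1, H2-D1 and H2-T23 against the share of all counts taken by the 14 microglia markers (percent), with 1 point for each of the 6 libraries. Kir2.1 replicate 1 and control replicate 1 share an x value of 5.84%, where their B2m points nearly meet at 8186 and 10200 CPM and their H2-K1 points stand at 529 and 104 CPM.

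The promoters of the class I genes show what these genes have in common in sequence. RefSeq promoters (GRCm38.p6, 250 bases before to 50 after the start) were found for 7 of the 9, and not for Tap2 and Nlrc5. Letters known from class I promoters were searched on both strands: TGACG, the core of the X2 box, ATTGG, the Y box bound by NF-Y, TTTCNNTT, an element of IRF factors, and GGGATTCCC, a kappa B site. Of 27025 genes with a promoter, 23% held TGACG, 41.1% ATTGG, 26.7% TTTCNNTT and 0.414% GGGATTCCC. TGACG followed by ATTGG after 15 to 30 bases, the order in the SXY module, was found in 0.648% of genes, and in B2m, H2-K1, H2-D1 and H2-Q7. The gap was 20 bases in B2m, H2-K1 and H2-D1 and 19 in H2-Q7. GGGATTCCC was found in H2-K1, H2-D1 and H2-Q7. The stretches that hold these letters are printed 5′ to 3′ on the gene's strand for the 5 genes with an IRF element, with each match in capitals (on either strand, so that a Y box on the other strand reads CCAAT, and an IRF element there reads AACTGAAA).
H2-K1, chr17:34000355-34000461, minus strand: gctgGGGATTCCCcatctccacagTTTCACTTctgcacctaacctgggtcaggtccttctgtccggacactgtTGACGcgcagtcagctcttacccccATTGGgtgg
H2-D1, chr17:35262920-35263026, plus strand: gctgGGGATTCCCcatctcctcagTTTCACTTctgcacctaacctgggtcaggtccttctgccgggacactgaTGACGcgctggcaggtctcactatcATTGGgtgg
H2-Q7, chr17:35439019-35439123, plus strand: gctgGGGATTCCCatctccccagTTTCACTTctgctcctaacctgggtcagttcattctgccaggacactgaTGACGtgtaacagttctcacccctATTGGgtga
B2m, chr2:122147546-122147642, plus strand: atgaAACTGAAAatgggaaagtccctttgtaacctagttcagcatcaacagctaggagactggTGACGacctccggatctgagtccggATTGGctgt
H2-T23, chr17:36032745-36032829, minus strand: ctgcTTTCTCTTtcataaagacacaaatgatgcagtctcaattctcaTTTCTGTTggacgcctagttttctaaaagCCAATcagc

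In H2-K1, H2-D1 and H2-Q7 the kappa B letters, the IRF element, TGACG and ATTGG followed each other in that order. H2-T23 held 2 IRF elements and ATTGG without TGACG, Tap1 TGACG and ATTGG outside that spacing, and Tapbp ATTGG alone of these letters. A match describes the sequence only.

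Other genes of the pathway were counted in lists chosen with earlier results of these data known, for both channel groups against control. None of their members passed the adjusted threshold in edgeR's test, and the share of all genes higher at an unadjusted p under 0.05, 2.85%, is the background for each count given here. Genes under 1 CPM in both control libraries reached the count minimum only through channel libraries, which favours values above 0. Among the genes named below these are H2-Q6, H2-K2, Klrd1 and Cd247, and they enter the counts and medians of their lists. Of 18 other class I heavy chain genes 9 could be tested, 7 above 0 and 2 below, with a median log2 fold change of 2.95 and 3 of the 9 higher at an unadjusted p under 0.05. H2-Q6, a further Qa-2 gene, had 147 and 82.6 CPM in the Kv1.2 libraries, 28.7 and 94.8 CPM in the Kir2.1 libraries, and 0.498 and 0 CPM in the control libraries. Its log2 fold change was 8.30 ± 1.81 (unadjusted p = 0.00245, adjusted p = 0.177, edgeR), and Kir2.1 replicate 1, with 5 counts of H2-Q7, held 317 counts of H2-Q6. H2-K2 had 577 and 557 counts in the Kv1.2 libraries, 235 and 0 in the Kir2.1 libraries, and 0 in both control libraries. Against a floor of 3 counts over the control group it was at least 281-fold higher in the pooled Kv1.2 counts, by counting error only. The same bound for the pooled Kir2.1 counts, 65.3-fold, rests on replicate 1 alone, since replicate 2 held 0 counts like the control libraries. Fcgrt, the heavy chain of the neonatal Fc receptor, had 76.3 and 49.1 CPM in the Kv1.2 libraries, 105 and 50.1 CPM in the Kir2.1 libraries, and 2.79 and 15.2 CPM in the control libraries (adjusted p = 0.341, edgeR).

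The 5 immunoproteasome genes, which shape the peptides that class I receives, were all above 0, with a median log2 fold change of 1.15 and 1 of 5 at an unadjusted p under 0.05 (2.85% of all genes). That gene was Psmb9, a catalytic subunit, which had 289 and 244 CPM in the Kv1.2 libraries, 163 and 167 CPM in the Kir2.1 libraries, and 22.7 and 0.120 CPM in the control libraries. Control replicate 2 held 1 count of Psmb9, and the log2 fold change was 4.20 ± 1.66 (adjusted p = 0.34, edgeR). The activator subunits Psme1 and Psme2 had log2 fold changes of 1.15 ± 0.60 and 0.85 ± 0.46. These were 1.79 and 1.51 in Kv1.2 against control, and 0.52 and 0.18 in Kir2.1 against control. In Kir2.1 against control 4 of the 5 immunoproteasome genes were above 0 and 1 below, with a median of 0.52. Of 11 genes of peptide loading and trimming, 8 were above 0 and 3 below, with a median of 1.58. The chaperones of the endoplasmic reticulum Hspa5 (1.74 ± 0.70), Pdia3 (1.58 ± 0.73) and Calr (1.52 ± 0.74) had the smallest p-values, of which Hspa5 alone was under 0.05 before adjustment.

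Of 17 regulators of class I transcription 16 could be tested, 11 above 0 and 5 below, with a median log2 fold change of 0.79 and 1 of the 16 higher at an unadjusted p under 0.05. Nfkb1, a subunit of NF-kappa B, had a log2 fold change of 2.71 ± 1.56 (unadjusted p = 0.125, adjusted p = 0.495, edgeR). Rfxap, a subunit of the RFX complex on the X box, went the other way in the Kir2.1 group, with 191 and 42 counts in the Kv1.2 libraries, 0 counts in both Kir2.1 libraries, and 3 and 81 counts in the control libraries. Of the 7 interferon receptors and their kinases 5 were above 0 and 2 below (median 1.15), led by Ifngr2 (2.22 ± 1.01), Ifngr1 (1.44 ± 0.94) and Ifnar2 (1.62 ± 1.12), none of them at an unadjusted p under 0.05.

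Receptors that read class I could be tested for 5 of 11 genes, 4 above 0 and 1 below, with a median log2 fold change of 2.45 and none at an unadjusted p under 0.05. Pirb, an inhibitory receptor for class I on myeloid cells that is also known from neurons, had 36.9 and 41.3 CPM in the Kv1.2 libraries, 39.5 and 46.3 CPM in the Kir2.1 libraries, and 4.78 and 10.2 CPM in the control libraries. All 4 channel libraries lay above both control libraries (2.45 ± 1.23, adjusted p = 0.448, edgeR). Klrd1, which encodes CD94, was seen in 1 library of each channel group, with 0 and 526 counts in the Kv1.2 libraries, 219 and 0 in the Kir2.1 libraries, and 1 and 0 in the control libraries. Cd247, a signalling chain of T and NK cell receptors, had 17 and 65 counts in the Kv1.2 libraries, 98 and 1 in the Kir2.1 libraries, and 1 and 0 in the control libraries.

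**Figure D4:**
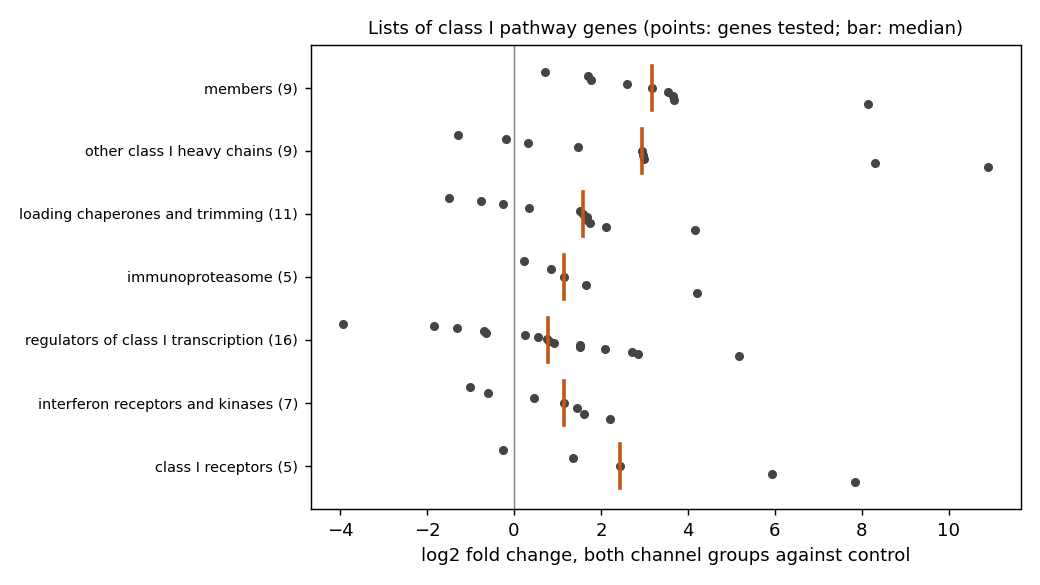
Log2 fold change of every tested gene (points) of the 9 class I genes and of 6 lists of pathway genes, for both channel groups against control, with an orange bar at each list's median and the number of genes tested in brackets. The class I genes have the highest median, 3.17, followed by the other heavy chains at 2.95, and the regulators of class I transcription the lowest, 0.79.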

How the data were processed

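The authors' methods and the submitters' processing notes give trimming, alignment to GRCm38 with STAR 2.7.0f, removal of multi-mapping alignments with SAMtools 1.9 and counting per gene with Subread 1.6.4. The authors deposited whole-number counts without normalization, which entered every test, and FPKM, used only to compare levels between genes. Deposited CPM and TPM tables and tables of the authors' 2 comparisons (fold changes and p-values) were not used. Groups and replicates came from the labels, and each replicate pools different mice. The read length differs between sources, and no source used here says whether counting used the strand. In R 4.3.3, edgeR 4.0.16 fitted all 6 libraries by group with TMM scaling and its quasi-likelihood test, on the 12275 genes that reached 1 CPM in 2 or more libraries. P-values were adjusted over these genes by Benjamini-Hochberg, with a threshold of 0.05. The standard error is the size of the log2 fold change over the square root of the F statistic. Library totals were 8871595 to 13632970 counts, and floors of 3 counts cover counting error only. The standard errors also take in the spread between the libraries of a group. Alternatives were DESeq2 1.42.0, the likelihood ratio test, other scalings and filters, only the compared groups, the replicate number as a block and each library left out. The fit of both channel groups against control was also run on simulated data. The direction of set changes was checked at the spread of these data, and their recovery was required only at a far smaller spread. The 9 genes and all lists were chosen with earlier results of these data known. All 9 genes were named, with up to 3 genes per list by smallest unadjusted p over both channel groups, and cell type markers. A result of 1 gene that this rule names is not reported here. Positions and shared 75-base windows came from GENCODE annotation of GRCm38, and promoters from RefSeq.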

Additional observations from a re-analysis of the deposited data

How the results depend on the processing

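The count of class I genes past the adjusted threshold, 0 of 9 in each comparison with edgeR's quasi-likelihood test, depended on the test and on the count minimum. DESeq2 called 5 in Kv1.2 against control, 2 in Kir2.1 against control and 4 for both channel groups, the likelihood ratio test called 4, 1 and 3, and the quasi-likelihood test without a count minimum called 5, 3 and 4, and 1 in Kir2.1 against Kv1.2. Without a count minimum, 5 were at an unadjusted p under 0.05 in Kir2.1 against control. In Kir2.1 against Kv1.2 that count was 1 in place of 2 with DESeq2, with the likelihood ratio test and with library size only. Over all 12275 genes tested, DESeq2 called 1307, 989, 1228 and 644 genes for Kv1.2, for Kir2.1, for both channel groups and in Kir2.1 against Kv1.2, and the likelihood ratio test 723, 225, 1097 and 68, where the quasi-likelihood test called 0, 0, 3 and 0. Without a count minimum it called 138, 122, 263 and 27 of 39646 genes. The cause was not tested.

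With each library left out in turn, 0 of the class I genes passed the adjusted threshold in every comparison. At an unadjusted p under 0.05 there were 4 to 6 in Kv1.2 against control, 2 to 4 in Kir2.1 against control, 3 to 5 for both channel groups (3 without control replicate 2 or Kv1.2 replicate 1) and 0 to 4 in Kir2.1 against Kv1.2 (0 without either of the Kv1.2 libraries or Kir2.1 replicate 1, and 4 without either control library). Tapbp turned in Kir2.1 against control (-0.18 to 1.12, below 0 without Kir2.1 replicate 2). In Kir2.1 against Kv1.2, Tap1 (-2.24 to 0.23), Tap2 (-1.33 to 0.36), Tapbp (-0.98 to 0.35) and Nlrc5 (-1.23 to 0.15) turned, and Tapbp was 0.01 with library size only. That scaling moved the median of all genes to 0.26 in Kir2.1 against control and to 0.38 in Kir2.1 against Kv1.2, with class I medians of 2.48 and -0.92. Tap2 was under the count minimum when Kir2.1 replicate 2 was left out, when Kv1.2 replicate 1 was, and where either channel group was fitted with control alone, and H2-Q7 also in the fit of Kir2.1 and control alone, which left 8 or 7 of the 9 genes. Of the alternative fold changes of single genes, 446 kept their direction and side of the threshold, 32 passed it and 6 turned.

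The replicate numbers are shared between groups but did not pair the libraries: the deviations of same-numbered libraries from their group means correlated at 0.01, -0.04 and 0 between the groups. With a replicate block 0 of the 9 genes passed in each comparison, and 6, 2, 5 and 1 were at an unadjusted p under 0.05 for Kv1.2, for Kir2.1, for both channel groups and in Kir2.1 against Kv1.2. A fit of only the groups compared cannot give the comparison of both channel groups. With 2 libraries a group, pooled from 2 mice each, a difference that missed the threshold was not shown to be absent, and genes near the detection limit, such as Tap2, are the least certain.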
